A study of Mus musculus with 7 samples.

Results

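The Hox genes and their cofactor families Meis and Pbx were described in mouse neural stem cells of 3 genotypes. Members were the rows of the deposited table named Hoxa, Hoxb, Hoxc or Hoxd with a paralog number, or named as a Meis or Pbx gene, which gave 35 of 18145 genes. They comprised 8 HoxA, 8 HoxB, 5 HoxC and 7 HoxD genes, 3 Meis genes and 4 Pbx genes. RefSeq names 39 mouse Hox genes, and the other 11 were not analysed here.

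RNA was sequenced from cells at passage 1, in 2 TMut libraries (genotype Tet-TMut), 2 TFoCa libraries (genotype Tet-TFoCa, written Tet-FoCa in the study's design text) and 3 WT libraries (wild type), each from a line of its own. The study's title concerns DNA hydroxymethylation as against DNA formylation and carboxylation, oxidised forms of methylcytosine that TET enzymes make. What the mutant genotypes change in this series of steps, and how the lines were derived, is not given in the labels. Between 33340167 and 62545457 reads per library fell in genes. All 3 genotypes expressed all 10 genes of a neural stem cell marker list, and their summed normalized counts were 130800 to 155960 in TMut, 151340 to 162260 in TFoCa and 176990 to 181930 in WT. Vim, a filament gene that other cell types use too, gave 113661 and 101256 of the TMut sums. It gave 84912 and 88637 of the TFoCa sums, and 65556, 66949 and 70733 of the WT sums. Of the 10 genes, 8 fell and 1 rose in TMut against WT (limma), with a median of −1.80 on the log2 scale, and 2 fell and 0 rose in TFoCa against WT. Over all genes tested, 20.4% fell and 18.4% rose in TMut against WT, and 3.52% fell and 5.25% rose in TFoCa against WT. Markers of other cell types moved with genotype too. The 12 mesenchymal markers summed to 202460 to 287320 in TMut, 365960 to 424150 in TFoCa and 143100 to 156630 in WT, and the 8 pluripotent cell markers to 12784 to 48721 in TMut, 1084 to 1326 in TFoCa and 13310.0 to 27092 in WT. Of the mesenchymal markers 5 rose and 3 fell in TMut against WT, with a median of 0.28, and 10 rose and 0 fell in TFoCa against WT. These counts stand beside the same all-gene shares. The 8 neuron markers summed to 9659.9 to 16281 in TMut, 49828 to 50234 in TFoCa and 66554 to 71002 in WT. The 5 listed markers of paraxial and early mesoderm summed to 1951 to 3120.3 in TMut, 1448 to 3259 in TFoCa and 886 to 917 in WT, and for every result on Hox, Meis and Pbx genes given here the part of these cell type markers was not tested. In such bulk samples, fewer cells of a type and less RNA per cell cannot be told apart.

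Hox genes encode homeodomain transcription factors that give cells their position along the head-to-tail axis. In mouse they lie in 4 clusters, HoxA to HoxD, and within a cluster the low-numbered genes are used first and furthest towards the head (the hindbrain), while the high-numbered genes mark the trunk and tail. The forebrain does not normally use Hox genes. PBX and MEIS proteins are homeodomain proteins of the TALE class that bind DNA together with HOX proteins and sharpen their choice of site, and both families also act without HOX partners in the developing brain.

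Because the study asks about forms of DNA methylation, which sits on CG dinucleotides, the start-site regions of the members that passed a test and had an entry were read from the RefSeq promoter table (assembly GRCm38.p6, an older build than the one the authors aligned to). Each runs from 250 bases before to 50 bases after the annotated start, written 5′ to 3′ on the gene's strand with every CG dinucleotide in capitals. They are Hoxd8 (chr2:74704365-74704664, plus strand), Meis2 (chr2:116064570-116064869, minus strand), Pbx4 (chr8:69832374-69832673, plus strand), Hoxb1 (chr11:96365508-96365807, plus strand) and Hoxc4 (chr15:103034145-103034444, plus strand).
Hoxd8: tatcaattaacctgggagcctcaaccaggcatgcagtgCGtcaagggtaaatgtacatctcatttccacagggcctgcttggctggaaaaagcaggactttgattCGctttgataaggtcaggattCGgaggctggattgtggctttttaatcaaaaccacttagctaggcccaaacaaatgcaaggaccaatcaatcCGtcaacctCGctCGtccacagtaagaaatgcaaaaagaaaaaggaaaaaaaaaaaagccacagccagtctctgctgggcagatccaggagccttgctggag
Meis2: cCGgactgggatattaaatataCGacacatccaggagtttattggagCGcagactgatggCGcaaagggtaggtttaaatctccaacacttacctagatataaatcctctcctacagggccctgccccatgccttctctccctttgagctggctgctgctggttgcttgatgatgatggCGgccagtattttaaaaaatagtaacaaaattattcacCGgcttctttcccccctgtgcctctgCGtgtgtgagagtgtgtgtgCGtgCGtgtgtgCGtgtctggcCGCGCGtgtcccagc
Pbx4: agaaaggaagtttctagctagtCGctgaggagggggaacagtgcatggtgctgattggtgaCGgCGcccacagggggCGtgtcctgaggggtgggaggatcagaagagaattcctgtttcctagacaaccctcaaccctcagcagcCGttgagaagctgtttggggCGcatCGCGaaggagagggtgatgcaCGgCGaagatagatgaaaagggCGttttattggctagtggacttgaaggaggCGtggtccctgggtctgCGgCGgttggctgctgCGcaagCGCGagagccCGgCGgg
Hoxb1: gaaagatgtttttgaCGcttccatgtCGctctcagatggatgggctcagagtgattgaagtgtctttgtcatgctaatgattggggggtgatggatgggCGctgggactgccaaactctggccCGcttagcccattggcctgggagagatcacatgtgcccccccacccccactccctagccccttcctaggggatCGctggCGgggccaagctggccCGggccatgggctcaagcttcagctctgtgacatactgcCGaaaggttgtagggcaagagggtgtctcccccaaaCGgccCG
Hoxc4: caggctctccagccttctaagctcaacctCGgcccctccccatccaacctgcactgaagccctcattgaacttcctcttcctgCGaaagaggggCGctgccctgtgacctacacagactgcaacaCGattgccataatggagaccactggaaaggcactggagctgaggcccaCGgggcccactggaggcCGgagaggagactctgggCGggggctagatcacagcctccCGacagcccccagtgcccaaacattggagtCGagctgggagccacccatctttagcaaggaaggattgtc
Among these, Pbx4 had 19 CG dinucleotides, Meis2 13, Hoxb1 10, Hoxc4 9 and Hoxd8 6, against a median of 7 over all 32851 RefSeq promoter windows of 300 bases. Entries were found for 22 of the 35 members, with 24 windows whose median was 14.5 (13 for the 19 Hox windows). The letters TGATNNAT, a form of the joint PBX-HOX site searched on both strands, occurred in 4 of the Hox windows, those of Hoxb1, Hoxb8, Hoxa2 and Hoxd11, which is 16.7% of member windows against 8.85% of all windows. In the Hoxb1 window the match TGATGGAT began 162 bases before the start, on the gene's strand. In mouse, Hoxb1 is known to keep its own hindbrain expression through sites that HOXB1 and PBX bind together. The MEIS letters TGACAG occurred in 8.33% of member windows and 19.2% of all windows. These matches describe letters in the windows only. No methylation was measured in the samples used here.

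Pbx3 and Pbx4 differed between TMut and WT by more than the spread between lines. In TMut cells Pbx3 and Pbx4 were lower than in WT cells, with fitted ratios of 0.42 to 0.66, while Pbx2 was not called. Over all genes tested, 38.8% passed between these genotypes. Levels are normalized counts, that is, reads per gene divided by a size factor for the depth of each library. Differences were fitted on log2(normalized count + 1), and a gene was called where its adjusted p was under 0.05. Pbx2 is expressed in most tissues, Pbx3 is prominent in the hindbrain, and Pbx4 was described mainly in testis. Pbx4 had normalized counts of 357 and 351 in TMut, 590.04 and 654 in TFoCa, and 896, 802 and 832 in WT. The 3 genotypes did not overlap, with TMut lowest and WT highest. The fitted differences on the log2 scale were −1.25 ± 0.13 for TMut against WT (SE of the limma fit; adjusted p = 0.000484, with Benjamini-Hochberg adjustment over all 18134 genes tested) and −0.81 ± 0.15 for TMut against TFoCa (limma, adjusted p = 0.00609). TFoCa against WT gave −0.44 ± 0.13 and missed the threshold (limma, adjusted p = 0.0845), although DESeq2 called it (adjusted p = 0.0297). The call between TMut and TFoCa was lost when only those 2 genotypes entered the fit (limma, adjusted p = 0.0529). Pbx3 had 2103 and 1862 in TMut, 2438 and 2156 in TFoCa, and 3021, 3056 and 2942 in WT. All 4 mutant lines lay below all WT lines, and each TMut line lay below each TFoCa line. TMut against WT gave −0.60 ± 0.10 (limma, adjusted p = 0.00352). TFoCa against WT gave −0.39 ± 0.10 and was not called (limma, adjusted p = 0.0585), was called by DESeq2 (adjusted p = 0.0212), and was called by limma without TFoCa replicate 1 (−0.48, adjusted p = 0.0481). TMut against TFoCa gave −0.21 with a 95% interval from −0.48 to 0.05.

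Pbx2 had 7889 and 7400.4 in TMut, 6404 and 6322 in TFoCa, and 7897, 6701 and 7324 in WT. TFoCa was lowest and TMut lay within the range of WT. The difference between TMut and WT was 0.07 with a 95% interval from −0.16 to 0.30, and it turned to −0.0094 under quantile normalization. TFoCa against WT gave −0.20 (95% interval −0.43 to 0.03) and TMut against TFoCa 0.26 ± 0.11, not called (limma, adjusted p = 0.0943). Per kilobase of exon in the GENCODE M21 annotation, which is of another build than the counts, Pbx2 was the highest member, with 2100.2 normalized counts per kb in TMut, 1748 in TFoCa and 2008 in WT.

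**Figure D1:**
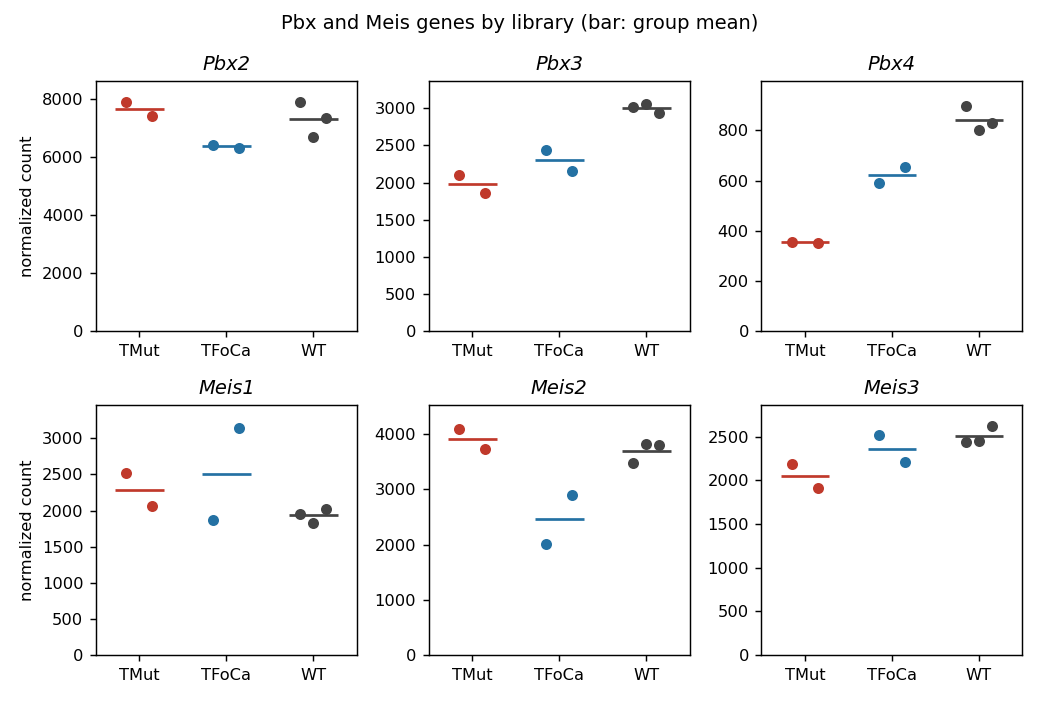
Normalized counts of Pbx2, Pbx3, Pbx4 and the 3 Meis genes in each library (y axis, starting at 0) by genotype (x axis: TMut, TFoCa, WT). Each point is a library and each bar the mean of its genotype. The TMut points of Pbx4, at 357 and 351, lie below all others, with TFoCa between TMut and WT, and the 2 TFoCa points of Meis2 lie below the rest.

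Among Meis genes, which encode the TALE proteins that join HOX-PBX complexes, Meis2 stood lowest in TFoCa. In mouse Meis2 is used in the midbrain roof, the ventral forebrain and adult olfactory neurogenesis, and Meis1 in the hindbrain, retina and blood stem cells. Meis2 had 4092 and 3724 in TMut, 2008 and 2902 in TFoCa, and 3473, 3820.3 and 3795 in WT. Both TFoCa lines were below all others, and TMut and WT overlapped. TMut against TFoCa gave 0.69 ± 0.17 (limma, adjusted p = 0.0178). That call was lost without TMut replicate 1 (adjusted p = 0.0695) or TMut replicate 2 (adjusted p = 0.0566) and when only the 2 genotypes were fitted with limma (adjusted p = 0.0659). TFoCa against WT gave −0.61 ± 0.16, just short of the threshold (limma, adjusted p = 0.052). It was called by DESeq2 (adjusted p = 0.0121), with a pseudocount of 8 (0.0494), among genes with a mean of 50 or more (0.0488), after quantile normalization (0.0499) and without TFoCa replicate 2 (−0.88, adjusted p = 0.00878). TMut against WT gave 0.08 with a 95% interval from −0.28 to 0.44.

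Meis1 had 2516 and 2058 in TMut, 1864 and 3143 in TFoCa, and 1952, 1831 and 2021 in WT. The 2 TFoCa lines lay on either side of nearly every other library, so the direction depended on which was used. TFoCa against WT gave 0.32 ± 0.21, 0.70 without TFoCa replicate 1 (called by limma, adjusted p = 0.0321) and −0.05 without TFoCa replicate 2. TMut against WT gave 0.24 with a 95% interval from −0.25 to 0.72. TMut against TFoCa gave −0.09 and turned positive without TFoCa replicate 2 (0.29) or TMut replicate 2 (0.06). Meis3, a gene of the hindbrain in frog embryos, had 2185 and 1917 in TMut, 2522 and 2209 in TFoCa, and 2442, 2455 and 2621 in WT. TMut lay below WT without overlap, by −0.29 ± 0.11 (limma, adjusted p = 0.07). It was called when only these genotypes were fitted (adjusted p = 0.0455) and without either TFoCa library (adjusted p = 0.0457 and 0.0454). TFoCa against WT gave −0.09 with a 95% interval from −0.34 to 0.17, and 0.01 without TFoCa replicate 2.

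Hox genes were mostly expressed at lower levels than the cofactors and differed widely between lines of a genotype, wild type included. Per kilobase, Hoxd8 averaged 137 normalized counts in TMut, 405 in TFoCa and 87.5 in WT, and no genotype mean of the other 27 Hox genes was above the 155 per kb of Hoxb4 in TMut. The lowest cofactor mean was 159.6 per kb, for Pbx4 in TMut. Over the 25 Hox genes with reads in all WT libraries, the ratio of the highest to the lowest WT library had a median of 4.40 and ran from 1.39 for Hoxb1 to 26.4 for Hoxb8. For the 7 Meis and Pbx genes that ratio ran from 1.04 to 1.18, and its median over all genes tested was 1.22. The remaining 3 Hox genes, Hoxa4, Hoxd1 and Hoxd10, had 0 reads in 1 WT library. WT replicate 1 was the highest WT library for 18 of the 28 Hox genes, and WT replicate 3 the lowest for 17. In HoxB, WT replicate 3 was lowest for 6 of 8 genes, while in HoxD it was WT replicate 1 that was lowest, for 5 of 7. Counting error was smaller than these gaps for the better-covered genes. Hoxb4 had 362 normalized counts in WT replicate 1 (95% Poisson interval 329 to 396) and 27.6 in WT replicate 3 (17.7 to 41.1). Such intervals cover counting error only.

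**Figure D2:**
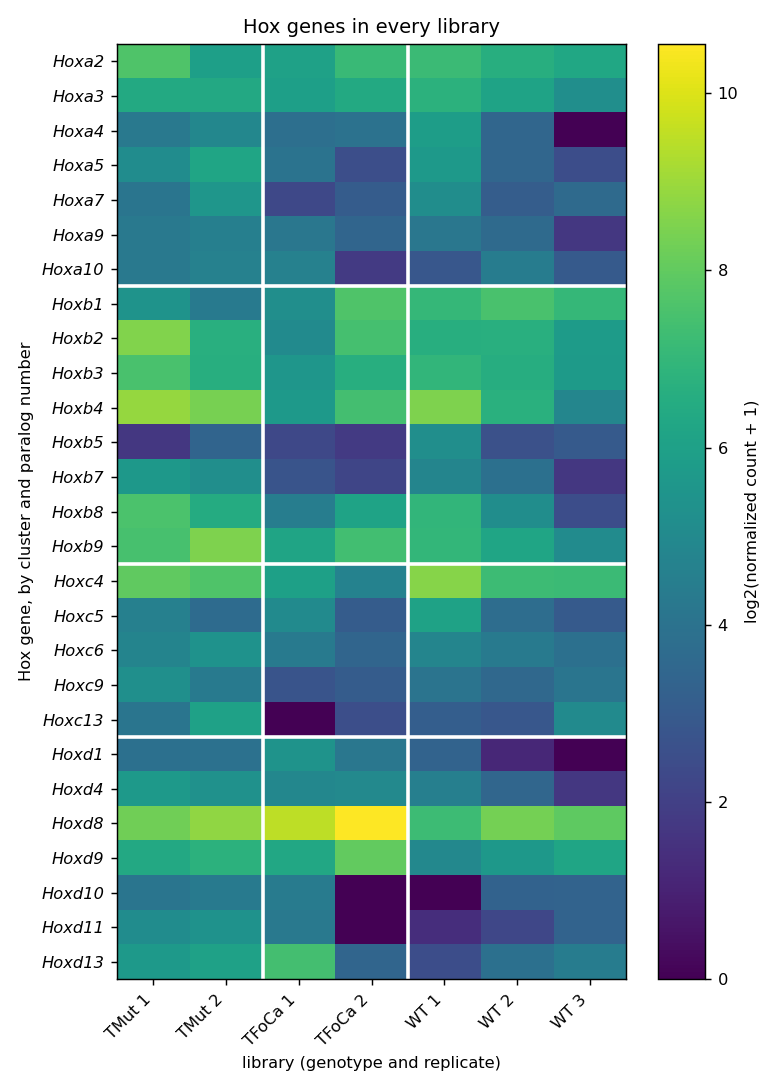
Level of Hox genes (rows, by cluster and paralog number) in each library (columns, TMut, TFoCa and WT separated by white lines), as log2(normalized count + 1) on the colour scale. Hoxd8 is brightest in both TFoCa libraries, WT replicate 1 is brighter than WT replicate 3 over most of HoxA and HoxB, and Hoxb4 is bright in TMut and in WT replicate 1.

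Summed by cluster, TFoCa cells were low in HoxC and high in HoxD. The 5 HoxC genes summed to 356 and 339 in TMut, 121 and 53.6 in TFoCa, and 509.9, 196.5 and 216 in WT. The 7 HoxD genes summed to 554 and 734 in TMut, 1077 and 1816 in TFoCa, and 217, 411 and 361 in WT. TFoCa was below all other libraries in HoxC and above all others in HoxD, and TMut was above WT in HoxD. Hoxc4 made up 45.5% to 76.9% of the HoxC sum. Without it that sum was 103 and 137 in TMut, 57.5 and 29.2 in TFoCa, and 118, 48.8 and 69.02 in WT, so TFoCa overlapped with WT. Hoxd8 alone made up 55.7% to 82.8% of the HoxD sum in every library. Without it the HoxD sum was 245 and 288 in TMut, 356 and 313 in TFoCa, and 68.3, 86.2 and 115 in WT, so the order of the genotypes was the same. HoxA summed to 454 and 472 in TMut, 244 and 325 in TFoCa, and 528, 272 and 153 in WT. HoxB summed to 1481 and 1049 in TMut, 267 and 875 in TFoCa, and 1021, 608 and 314 in WT. In HoxA the WT range held both mutant genotypes. In HoxB the TMut lines lay above all others, and TFoCa and WT overlapped.

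Summed by paralog number, only groups 9 to 13 set all mutant lines apart from the WT lines, while the medians over single genes did not follow the sums. The 9 genes of paralog groups 9 to 13 summed to 448 and 729 in TMut, 402 and 453 in TFoCa, and 209, 197 and 204 in WT. All mutant lines were above the WT lines, whose sums lay close together although their single genes did not. The fitted differences of the 9 genes between TFoCa and WT were positive for 4 and negative for 5, with a median of −0.02. None of these was called by limma or edgeR, and DESeq2 called Hoxd9 and Hoxd13. An unadjusted limma p under 0.05 was found for 2 of the 9, beside 4620 of all 18134 genes tested. The TFoCa sums were led by Hoxd9 and Hoxb9 and, in TFoCa replicate 1, by Hoxd13. The 7 genes of groups 1 to 3 summed to 964 and 511 in TMut, 328 and 773 in TFoCa, and 720.2, 589 and 367 in WT, with full overlap. The 12 genes of groups 4 to 8 summed to 1433 and 1353 in TMut, 979 and 1844 in TFoCa, and 1348, 701 and 474 in WT, where WT replicate 1 lay among the mutant lines. Gene by gene, the median TMut difference from WT was 1.38 for groups 9 to 13. It was 1.475 for groups 4 to 8 and 0.66 for groups 1 to 3. In TFoCa against WT the medians were −0.02, −0.22 and −0.11, in the same order. Both mutant genotypes are set against the same WT libraries. These sums are descriptions and carry no test.

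**Figure D3:**
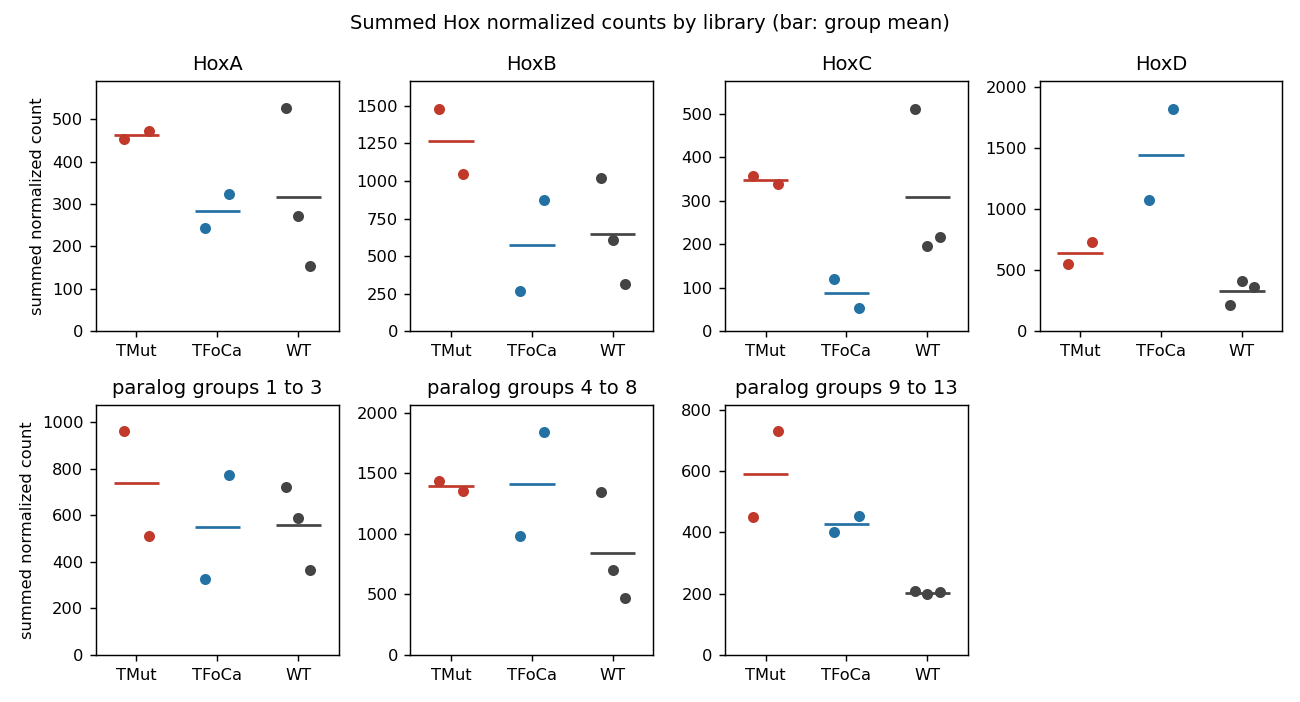
Summed normalized counts of Hox genes in each library (y axes, starting at 0) by genotype (x axes: TMut, TFoCa, WT), for the 4 clusters and for 3 ranges of paralog number. Points are libraries and bars genotype means. TFoCa is lowest in HoxC and highest in HoxD, and for paralog groups 9 to 13 the WT points, between 197 and 209, lie below all mutant points.

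In TMut against WT, Pbx3 and Pbx4 fell, Hoxb9 rose and Hoxb1 fell. Hoxb1 is the hindbrain gene that specifies rhombomere 4, and Hoxb9 belongs to the trunk, where it helps to shape the rib cage. Of the 34 members tested (Hoxb5 was below the filter on low counts), 5 passed. Over all genes tested 38.8% passed, 18.4% upwards and 20.4% downwards, so the members' share lay below this background, a gap that was not tested. Of the 27 tested Hox genes 25 had a positive fitted difference, with a median of 1.25 on the log2 scale, where 50.1% of all genes were positive with a median of 0.00. Leaving out any library kept this median between 0.97 and 1.57, and without WT replicate 3 the differences were positive for 21 of the 27. The median was 0.87 with a pseudocount of 8, and 0.83 over the 12 Hox genes with a mean of 50 or more. Of the 27 Hox genes 11 lay above WT and 1 below it without overlap, against 67.1% of all genes that did not overlap in either direction.

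Hoxb9 had 176 and 364 in TMut, 69.9 and 163 in TFoCa, and 126, 73.5 and 33.4 in WT. TMut was above all other libraries, and TFoCa and WT overlapped. The difference from WT was 1.89 ± 0.62 (limma, adjusted p = 0.0447). Hoxb1 had 41.5 and 19.2 in TMut, 36.4 and 199.6 in TFoCa, and 130.2, 181 and 131 in WT. TMut was below all WT libraries, and the TFoCa lines fell on both sides. The difference from WT was −2.32 ± 0.68 (limma, adjusted p = 0.0297). The Hoxb9 call was lost with limma without WT replicate 2 (adjusted p = 0.0917), WT replicate 3 (0.112), TMut replicate 1 (0.0516) or TMut replicate 2 (0.241). The Hoxb1 call was lost without any of the 3 WT libraries (0.0639, 0.0875 and 0.0711, in replicate order) or without TMut replicate 2 (0.167).

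The other well-expressed HoxB genes overlapped or were not called. Hoxb4, a gene of the hindbrain and neck, had 465 and 331 in TMut, 51.7 and 168 in TFoCa, and 362, 104 and 27.6 in WT. TMut was high, but WT replicate 1 lay between its lines, and the difference was 1.94 ± 0.97. Hoxb2, which acts downstream of Hoxb1 and Egr2 in the hindbrain, had 377 and 100.8 in TMut, 32.6 and 172 in TFoCa, and 96.5, 100.8 and 55.2 in WT. Hoxb3 had 184 and 98.4 in TMut, 46.0 and 98.6 in TFoCa, and 123, 93.8 and 52.9 in WT. Single lines set the group means for both genes. Hoxb8, used in the trunk and in microglia precursors, had 187 and 90.04 in TMut, 21.1 and 68.2 in TFoCa, and 122, 35.5 and 4.60 in WT. None of these 4 was called in any comparison with limma, where edgeR and DESeq2 made no call for them either. Reads of Hoxb3 and Hoxb2 cannot be told apart from those of the antisense gene Hoxb3os without strand, which covers 52.9% and 27.3% of their exon bases in GENCODE M21, and no strand setting is given in the sources used here.

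No HoxA gene was called in any of the 3 comparisons by limma, edgeR or DESeq2, and unadjusted limma p-values under 0.05 numbered 0 for TMut against WT, 0 for TFoCa against WT and 1 for TMut against TFoCa. Over all 18134 genes tested such p-values numbered 8868, 4620 and 8471, in the same order. All 8 HoxA differences between TMut and WT were positive, with a median of 1.11 and a median SE of 0.77, and without WT replicate 3 the median was 0.47 with 5 positive. Hoxa2, the most anterior Hox gene of the hindbrain and a selector of pharyngeal arch fate, had 198 and 61.2 in TMut, 65.1 and 141 in TFoCa, and 145, 98.2 and 78.2 in WT. All 3 genotypes overlapped. Hoxa3, Hoxa4, Hoxa5, Hoxa7, Hoxa9 and Hoxa10 ranged from 0 to 111 over all libraries. In HoxD all 7 differences between TMut and WT were positive, with a median of 2.25, and 6 of the 7 genes lay above WT without overlap. Over all 18134 genes tested, 67.1% did not overlap in either direction, and 6065 lay above WT. None of the 7 HoxD genes was called by limma or edgeR, and DESeq2 called Hoxd4 and Hoxd11. With limma, 3 of the 7 had an unadjusted p under 0.05, beside 8868 of all 18134 genes tested. Hoxd11, a gene of the forearm and sacrum that was named after its values were seen, had 34.6 and 40.8 in TMut, 18.2 and 0 in TFoCa, and 1.57, 3.80 and 9.20 in WT. Both TMut lines were above all other libraries, and the WT values rested on few reads.

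In TFoCa against WT, Hoxd8 rose and Hoxc4 fell. Hoxc4, the lowest-numbered HoxC gene and at the end of its cluster, is used in the lower hindbrain and neck. Hoxd8, in the middle of HoxD, is used in the trunk. With limma they were the only 2 of 34 members that passed, 1 in each direction, against 8.77% of all genes tested, 5.25% upwards and 3.52% downwards. Of the 27 tested Hox genes 11 had a positive difference and the median was −0.11, beside 47.9% positive over all genes, and this median took either sign when single libraries were left out (−0.43 to 0.31). Without overlap, 4 Hox genes lay above WT, all in HoxD, and 4 below, against 45.2% of all genes that did not overlap.

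Hoxd8 had 309 and 445 in TMut, 720.3 and 1503 in TFoCa, and 149, 325 and 246 in WT. Both TFoCa lines were above all others, and TMut overlapped with WT. The difference of TFoCa from WT was 2.18 ± 0.41, or 4.54-fold (limma, adjusted p = 0.0189), and that of TMut from TFoCa was −1.49 ± 0.45 (limma, adjusted p = 0.0353). Per kilobase Hoxd8 was the highest Hox gene in TFoCa, at 405 normalized counts per kb, against 87.5 in WT. The rise in TFoCa was lost with limma without WT replicate 1 (adjusted p = 0.05105), WT replicate 3 (0.0605) or TFoCa replicate 2 (1.65, adjusted p = 0.0628). The fall in TMut against TFoCa was lost without WT replicate 3 (0.0591), TFoCa replicate 2 (−0.96, adjusted p = 0.153), TMut replicate 1 (0.135) or TMut replicate 2 (0.0726), after quantile normalization (0.0522), and with only the 2 genotypes fitted (0.0519).

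Hoxc4 had 253 and 202 in TMut, 63.2 and 24.3 in TFoCa, and 392.3, 148 and 147 in WT. Both TFoCa lines were below all others, and the TMut lines lay inside the WT range. TFoCa differed from WT by −2.35 ± 0.54, or 0.196-fold (limma, adjusted p = 0.0374), and TMut from TFoCa by 2.49 ± 0.59 (limma, adjusted p = 0.0157). Against WT the call was lost by edgeR (adjusted p = 0.0524), by limma with only the 2 genotypes (0.0507), and by limma without WT replicate 1 (0.0879), WT replicate 2 (0.0764), WT replicate 3 (0.0763) or TFoCa replicate 2 (−1.68, adjusted p = 0.122). Against TMut it was lost without TFoCa replicate 2 (0.0588), TMut replicate 1 (0.0574) or TMut replicate 2 (0.0562).

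No other HoxD gene was called by limma in TFoCa against WT. Hoxd10 (−0.02 ± 1.45) and Hoxd11 (−0.19 ± 1.20) had negative fitted differences, and each had 0 reads in TFoCa replicate 2. Their TFoCa means, 10.1 and 9.10, were above their WT means of 6.03 and 4.86. With edgeR, with DESeq2 and after quantile normalization all 7 HoxD differences were positive. Hoxd9, next to Hoxd8 in the cluster and used in limb and lumbar spinal cord, had 80.6 and 109 in TMut, 80.5 and 256 in TFoCa, and 29.8, 48.2 and 73.6 in WT. All mutant lines were above all WT lines, and the TFoCa difference was 1.58 ± 0.56, called by DESeq2 and not by limma. Hoxd13, a gene of digits and the genital tubercle named here after its values were seen, had 50.7 and 64.8 in TMut, 167 and 9.74 in TFoCa, and 4.71, 13.9 and 20.7 in WT. The TFoCa lines lay far apart, with replicate 2 inside the WT range, and TMut was above WT in both lines. DESeq2 called Hoxd13 in TFoCa against WT, and limma did not. The other HoxD genes, Hoxd1, Hoxd4, Hoxd10 and Hoxd11, ranged from 0 to 49.5 over all libraries. In GENCODE M21 52.3% of the exon bases of Hoxd4 are shared with Hoxd3 and Gm28230 on the same strand, and how the authors' counting treated such reads is not given in the sources used here.

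In TMut against TFoCa, 4 Hox genes and Meis2 rose, and Hoxd8 and Pbx4 fell. The 4 were Hoxb7, Hoxc4, Hoxc9 and Hoxc13, of which the first 3 are used in the neck and trunk and Hoxc13 in hair and nails. In all, 8 of 34 members passed, against 35.8% of all genes tested, 17.3% upwards and 18.5% downwards. Of the 27 Hox differences 23 were positive, with a median of 1.21, beside 49.9% positive over all genes. In HoxC all 5 were positive with limma, of which 3 passed, and 4 of the 5 were positive with edgeR and with DESeq2. Without overlap, 15 Hox genes were higher and 2 lower in TMut, against 67.5% of all genes that did not overlap.

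Hoxb7 had 48.4 and 36.02 in TMut, 5.75 and 3.65 in TFoCa, and 26.7, 13.9 and 2.30 in WT. Hoxc9 had 36.9 and 19.2 in TMut, 5.75 and 7.30 in TFoCa, and 15.7, 10.8 and 16.1 in WT. Hoxc13 had 16.1 and 64.8 in TMut, 0 and 4.87 in TFoCa, and 7.85, 6.34 and 32.2 in WT. For each of the 3, both TMut lines were above both TFoCa lines, whose values rested on 0 to 6 reads per library. The differences between TMut and TFoCa were 2.93 ± 0.95 for Hoxb7 (limma, adjusted p = 0.0455), 1.89 ± 0.55 for Hoxc9 (adjusted p = 0.031) and 3.79 ± 1.14 for Hoxc13 (adjusted p = 0.0349). Without single libraries the limma call was lost for Hoxb7 on leaving out WT replicate 2 (adjusted p = 0.0714), TFoCa replicate 1 (0.0841), TFoCa replicate 2 (0.131), TMut replicate 1 (0.136) or TMut replicate 2 (0.122). For Hoxc9 it was lost without WT replicates 1, 2 or 3 (0.0523, 0.0544 and 0.0553), TFoCa replicates 1 or 2 (0.087 and 0.0572) or TMut replicate 1 (0.128). For Hoxc13 it was lost without WT replicates 1 or 2 (0.0538 and 0.0511), TFoCa replicate 1 (2.52, adjusted p = 0.141) or TMut replicate 2 (0.185). Other settings ended calls too. Hoxb7 missed with a pseudocount of 0.5 (0.0512) and after quantile normalization (0.0856), and fits to the 2 genotypes only ended those of Hoxc9 (0.108) and Hoxc13 (0.0723), which edgeR also missed for Hoxc13 (0.0511).

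**Figure D4:**
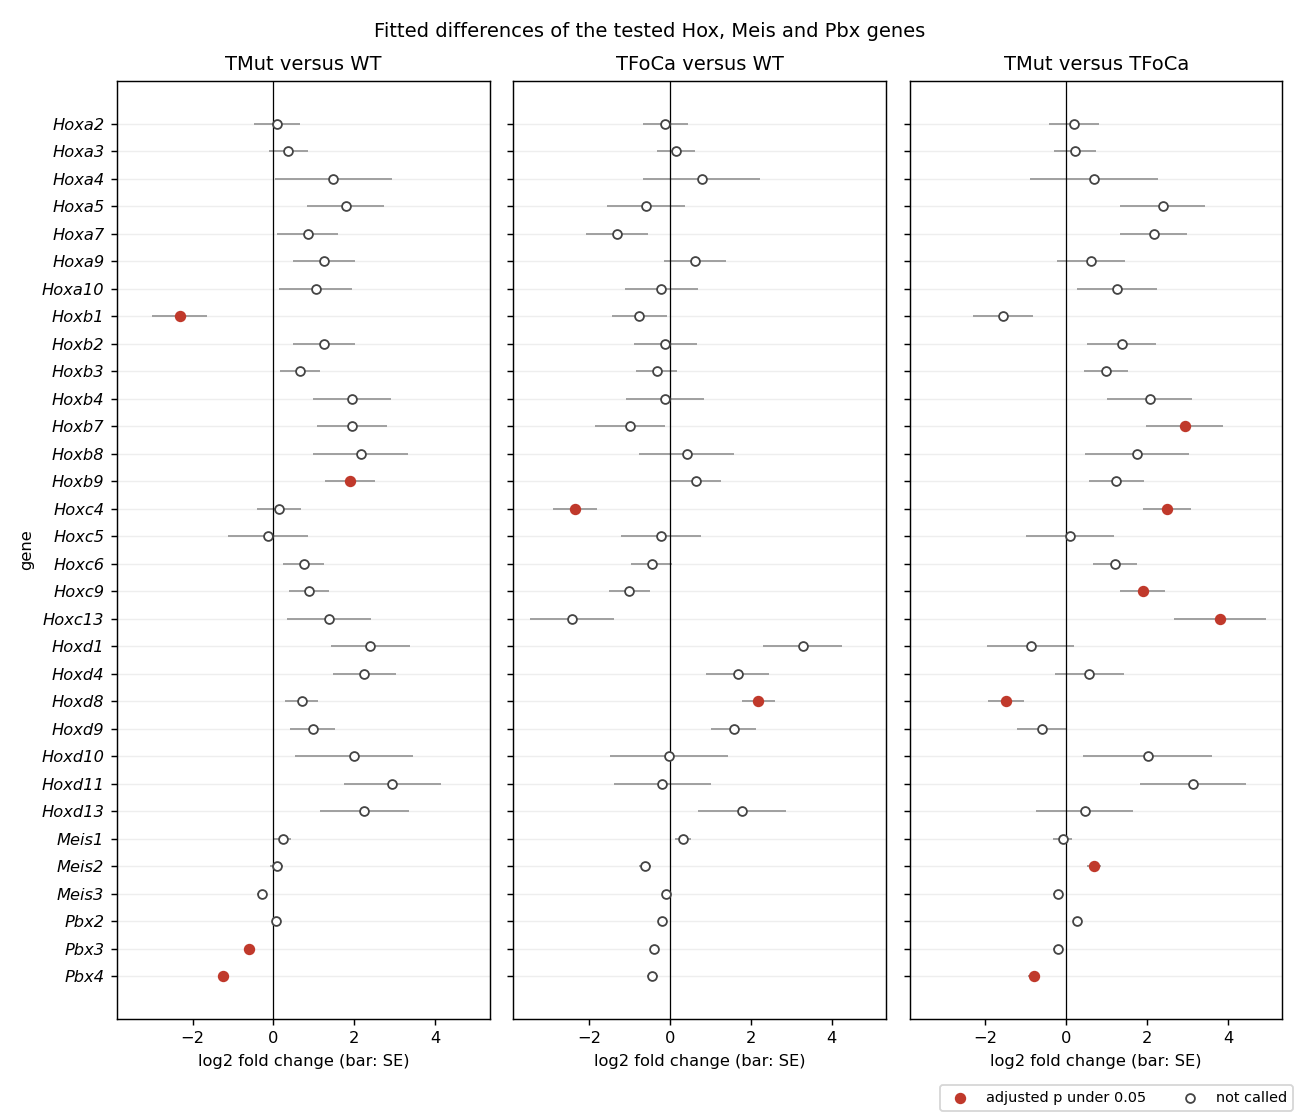
Fitted log2 fold change of tested Hox, Meis and Pbx genes (rows) with its SE (bar) in the 3 comparisons (panels). Filled points had a limma adjusted p under 0.05, and open points did not. Bars are short for Pbx and Meis genes and long for Hox genes, and most Hox points lie to the right of 0 for TMut versus WT.

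All 9 Hox calls over the 3 comparisons were lost when some single library was left out, whereas those of Pbx3 and Pbx4 in TMut against WT were kept under all 17 alternative settings. Of these settings, the replicate block and the fit without WT replicate 3 share their estimates. The 7 Hox genes called shared no exon bases with another gene in GENCODE M21, on either strand, as was true of 15 of the 28 Hox genes.

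The genes around the Hox system were read from lists of known regulators and neighbours. Of 9 tested genes that start or pattern Hox expression, 4 rose and 1 fell in TMut against WT, where 18.4% of all genes tested rose and 20.4% fell. Egr2, a direct activator of Hoxa2 and Hoxb2 in the hindbrain, averaged 532 in TMut and 155 in WT (1.77 ± 0.19, limma, adjusted p = 0.000487). In TFoCa against WT, where 5.25% of all genes rose and 3.52% fell, 2 rose and 2 fell, among them Egr2 with 398 in TFoCa and 155 in WT (1.36 ± 0.19, limma, adjusted p = 0.00827) and Cdx1, a caudal gene that activates Hox genes in the tail bud, with 4.61 in TFoCa and 122 in WT (−4.44 ± 0.67, adjusted p = 0.0101). Both comparisons of Egr2 use the same WT libraries.

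Retinoic acid is the classic inducer of anterior Hox genes. Of 17 tested genes of its pathway, 6 rose and 1 fell in TMut against WT, and the 7 calls were a share close to the 38.8% of all genes called. Cyp26a1, which degrades retinoic acid and is itself induced by it, averaged 785 in TMut and 78.1 in WT (3.30 ± 0.45, limma, adjusted p = 0.00127). In TFoCa against WT, where 8.77% of all genes were called, 1 of the 17 rose, the receptor gene Rara, with 3473 in TFoCa and 1923 in WT (0.84 ± 0.16, limma, adjusted p = 0.0187). That call was lost without any of the WT libraries (0.0523, 0.0610 and 0.0703, in replicate order). Aldh1a3, which makes retinoic acid, averaged 2365 in TFoCa and 681 in WT and was not called by limma (1.87 ± 0.51, adjusted p = 0.0636). DESeq2 called it (1.80, adjusted p = 0.0426).

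A list of 23 genes held Polycomb and trithorax genes, whose products keep Hox genes silent or active, and Utf1. Of the 23, 3 fell and 0 rose against WT in TMut, where 20.4% of all genes tested fell and 18.4% rose. In TFoCa against WT 3 fell, Utf1 among them, and 0 rose as well, where 3.52% of all genes fell and 5.25% rose. Ezh2, the enzyme that writes the H3K27 methyl mark, averaged 4926 in TMut and 9098 in WT (−0.89 ± 0.12, limma, adjusted p = 0.00125), and 5746 in TFoCa against the same WT mean (−0.66 ± 0.12, adjusted p = 0.0169). The TFoCa call of Ezh2 was lost without any of the WT libraries or TFoCa replicate 1 (0.0502 to 0.0659). Ring1, a subunit of the other Polycomb complex, averaged 1644 in TMut and 3290.2 in WT (−1.003 ± 0.15, adjusted p = 0.00169). Utf1, a chromatin protein best known from pluripotent cells, averaged 41.8 in TFoCa and 1093 in WT (−4.58 ± 0.69, adjusted p = 0.00996). The median difference of the 23 genes was −0.19 for TMut against WT, beside 0.00 over all genes, and −0.10 for TFoCa against WT, beside −0.02 over all genes.

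Of 8 tested noncoding and Evx genes that lie in or beside the clusters, 2 rose and 2 fell in TMut against WT, where 38.8% of all genes tested were called. Evx2, the homeobox gene beyond the Hoxd13 end of HoxD, averaged 1.20 in TMut and 48.9 in WT (−4.75 ± 0.59, limma, adjusted p = 0.000855), although all 7 HoxD genes had positive differences there. Hoxd3os1, an antisense transcript near Hoxd3 and Hoxd4, averaged 28.3 in TMut and 3.46 in WT (2.71 ± 0.49, adjusted p = 0.00439). In TFoCa against WT 4620 of all 18134 genes tested had an unadjusted limma p under 0.05. None of the 8 was called there by limma, and 2 had such a p. Of these, Hoxd3os1 had 14.4 in TFoCa and 3.46 in WT (1.74 ± 0.49, adjusted p = 0.0687) and Hotairm1, a noncoding RNA of the HoxA cluster, had 87.4 in TFoCa and 46.3 in WT (0.89 ± 0.33, adjusted p = 0.141). After quantile normalization Hoxd3os1 was called there (2.74, adjusted p = 0.0251).

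Of 11 other TALE homeodomain genes, 2 rose and 5 fell in TMut against WT, where 18.4% of all genes tested rose and 20.4% fell. Mkx, a tendon gene, averaged 251.5 in TMut and 84.98 in WT (1.58 ± 0.30, limma, adjusted p = 0.00554), and Irx5, an Iroquois gene used in neural patterning, 673 in TMut and 1189 in WT (−0.81 ± 0.19, adjusted p = 0.0124). The Irx5 call was lost without TMut replicate 1 (0.0698). Against WT, none was called in TFoCa by limma, with 3 at an unadjusted p under 0.05, beside 4620 of all 18134 genes tested. DESeq2 called Pknox2 (adjusted p = 0.0276) and Mkx (0.014) there.

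Forebrain genes and genes of the midbrain and hindbrain were read as lists of regional identity. Of 13 tested forebrain genes 7 fell and 1 rose in TMut against WT, where 20.4% of all genes tested fell and 18.4% rose. Otx1 averaged 291 in TMut and 3593 in WT (−3.71 ± 0.26, limma, adjusted p = 0.000131), and Emx2, a cortical patterning gene, 198 in TMut and 1005 in WT (−2.35 ± 0.16, adjusted p = 0.000124). Of 12 tested midbrain and hindbrain genes 6 fell and 0 rose, among them Pax5, a gene of the midbrain-hindbrain boundary, with 38.4 in TMut and 394 in WT (−3.51 ± 0.43, adjusted p = 0.000842) and Lmx1b with 148 in TMut and 1138 in WT (−2.90 ± 0.39, adjusted p = 0.00117). In TFoCa against WT, where 5.25% of all genes rose and 3.52% fell, 1 forebrain gene rose and 1 fell, namely Nkx2-1 of the ventral forebrain, with 2920 in TFoCa and 495 in WT (2.54 ± 0.61, limma, adjusted p = 0.0437), and Emx1 of the cortex, with 11.0 in TFoCa and 175 in WT (−3.78 ± 0.51, adjusted p = 0.00711). En2 and Pax5, both of the midbrain-hindbrain region, fell in TFoCa, En2 with 583 in TFoCa and 1732 in WT (−1.73 ± 0.36, limma, adjusted p = 0.027) and Pax5 with 116 in TFoCa and 394 in WT (−1.75 ± 0.43, adjusted p = 0.048). The calls of Nkx2-1 and Pax5 in TFoCa were lost without any of the 3 WT or 2 TFoCa libraries, and that of En2 without any of the WT libraries.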

How the data were processed

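RNA was sequenced from 7 libraries of mouse neural stem cells. Per the submitters' processing notes, the tools were STAR 2.7.3a, Trim Galore 0.6.5, SAMtools, DESeq2 and featureCounts, and the build was mm39; the annotation, strand setting and other settings are not given in the sources used here. The deposited table holds normalized counts (signal), that is, gene counts divided by the size factor of each library. Whole reads were recovered from 100% of values within a tolerance of 0.001 read. The smallest sum over libraries of a listed gene was 71 reads, so genes with fewer are not in the table. Even numbers made up 70.29% to 79.32% of the counts between 1 and 20 reads. If that reflects pairs counted by both mates, Poisson intervals are too narrow.

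The 18134 of 18145 genes that reached a normalized count of 10 in 2 or more libraries were fitted on log2(normalized count + 1) with limma 3.58.1 (intensity trend, R 4.3.3), as a single model of all 3 genotypes that left 4 residual degrees of freedom. Fold changes are on that scale, where the added 1 shrinks the change of low genes. A library with few or 0 reads can also enlarge or turn a fitted difference. Hoxa4 in TMut against WT had means of 23.6 and 22.5 and a fitted difference of 1.47 ± 1.45. Hoxd11 in TFoCa against WT had means of 9.10 and 4.86 and a fitted difference of −0.19 ± 1.20. Each fit covered the whole table, and calls needed an adjusted p (Benjamini-Hochberg) under 0.05. The script was tested on simulated data with known changes. The alternatives were other pseudocounts (0.5 and 8), no filter or a mean of 50 or more, TMM factors, quantile normalization, edgeR 4.0.16 and DESeq2 1.42.0 on the recovered reads, a fit to the 2 genotypes compared, replicate number as a block, and leaving out each library. Values per library are given for Meis and Pbx genes and for Hox genes called in a comparison or averaging 100 or more in a genotype. Of each gene list, the 2 genes with the smallest adjusted p against WT were named for each mutant genotype. Median Hox differences under each alternative were added after seeing the data. Some members and list genes are not reported here, though counts and sums over lists hold them. Members and lists were chosen with earlier results of these data known. GENCODE M21 gave exon lengths and overlaps, and RefSeq (GRCm38.p6) gave promoter sequences; both are of another build than the counts, and the members were matched by symbol. Replicates are separate lines per the design text; no batch is recorded in the labels.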

Additional observations from a re-analysis of the deposited data

How the results depend on the processing

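The number of Hox, Meis and Pbx genes called in TFoCa against WT (2 with limma) was 1 with edgeR, 7 with DESeq2, 1 with only the 2 genotypes fitted, and 0 to 5 on leaving out single libraries. In TMut against WT (5) it was 8 with only the 2 genotypes fitted, 3 with replicate number as a block, and 3 to 8 on leaving out libraries. In TMut against TFoCa (8) it was 5 among genes with a mean of 50 or more, 3 with the 2 genotypes fitted, and 3 to 7 on leaving out libraries. Over all genes, calls in TFoCa against WT (1590) numbered 2947 with DESeq2, 555 with the replicate block and 495 to 1768 on leaving out libraries. In TMut against WT (7043) they numbered 4620 with the replicate block and 4329 to 8127 on leaving out libraries, and in TMut against TFoCa (6491) 3419 with the 2 genotypes fitted and 3164 to 5940 on leaving out libraries. Fits with fewer libraries have fewer degrees of freedom, and in both comparisons with WT their counts went up in some fits and down in others. The cause of these shifts was not tested.

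Replicate numbers are not said to pair lines, so they were not taken as pairs. Same-numbered libraries correlated at 0.0192 to 0.185 in their deviations from the genotype means. These values cannot decide whether lines were paired, because the deviations of the 2 lines of a mutant genotype mirror each other. Only WT has a replicate 3, so the replicate block takes that library out of the estimates. Its differences from WT equal those without WT replicate 3, and it is not a separate check from that fit. With the replicate block the calls against WT of Hoxb1 (−2.40, limma adjusted p = 0.077) and Hoxb9 (1.39, adjusted p = 0.118) in TMut were lost, as was that of Hoxc9 between TMut and TFoCa (1.89, adjusted p = 0.0688). Among the list genes named, the block ended the limma calls of Egr2 (1.34, adjusted p = 0.0585), Rara (0.76, 0.0892), Ezh2 (−0.60, 0.0915), En2 (−1.71, 0.074) and Pax5 (−1.69, 0.107) in TFoCa against WT and of Irx5 (−0.80, 0.0513) in TMut against WT.

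The sign turned for 4 of the uncalled Meis and Pbx differences described, and for Hox genes too. Of the 8 HoxA differences between TFoCa and WT, 4 were positive with all libraries, 0 without WT replicate 3 and 6 without WT replicate 1. Leaving out single libraries in TFoCa against WT gave −0.052 to 0.70 for Meis1 and −0.18 to 0.010 for Meis3, each turning without TFoCa replicate 2. The others were Pbx2 in TMut against WT under quantile normalization (−0.0094), and Meis1 in TMut against TFoCa, which ran from −0.47 to 0.29 on leaving out libraries and was positive without TFoCa replicate 2 (0.29) or TMut replicate 2 (0.06). The number of lines limits every comparison, and low read numbers limit most Hox genes.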
